A study of Arabidopsis thaliana with 18 samples.

Results

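The TIF-seq lists of *spt16-1* and *ssrp1-2*, mutants of the FACT subunits SPT16 and SSRP1, were set directly against each other, and 4 of the 18 samples of the series belong to them. The comparison was made on read pairs per coding gene, given as RPM (read pairs per 1000000 read pairs of the list), and on intragenic 5′ ends, taken as shared where the other list had a 5′ end within 50 nt on the same strand and as found in 1 mutant otherwise. TIF-seq (transcript isoform sequencing) joins the transcription start site (TSS) and the poly(A) site (PAS) of the same RNA molecule in 1 read pair. The authors grouped read pairs whose ends co-occurred within 20 nt windows into TIF-clusters, and a TIF-cluster of fewer than 3 read pairs is in no list.

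FACT (facilitates chromatin transcription) is a histone chaperone that travels with RNA polymerase II through genes. It loosens the contacts between histones and DNA ahead of the polymerase and helps to put the nucleosome back behind it. SPT16 and SSRP1 work as a heterodimer in plants as in other eukaryotes, and where FACT is impaired, start sites inside genes that nucleosomes normally cover can be used. The direct comparison asks whether a mutation in one subunit or the other goes with the same gene levels and the same intragenic start sites.

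Both mutants were *Arabidopsis thaliana* seedlings grown for 14 days on sucrose-containing plates in long days at 22 °C, and neither received a treatment before freezing. Each genotype stands for a single mutant allele, so the subunit and the allele cannot be told apart. Wild-type and *hen2-2* seedlings of the same age and temperature were used only for orientation, as were wild type and *hen2-2* at 4 °C. The seedlings of these 4 °C lists were also grown at 22 °C and were moved to 4 °C only for a few hours before harvest. HEN2 is a helicase that feeds RNA to the exosome, the machinery that degrades RNA in the nucleus. Each list pools 2 libraries, so that there is no replicate check on any difference given here, no p-value was computed, and the intervals (95%) cover counting error only. Genotype, library preparation and harvest cannot be told apart from these lists.

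With 924907 read pairs in 49901 TIF-clusters, *spt16-1* was covered more deeply than *ssrp1-2*, with 705245 in 40940, so that 1 read pair was worth 1.08 RPM in *spt16-1* and 1.42 RPM in *ssrp1-2*. In both, over 99% of the read pairs lay on the strand of 1 coding gene (99.4% and 99.5%). The lists named 11391 coding genes in *spt16-1* and 10499 in *ssrp1-2*. Marker genes of shoot summed to 14354 RPM in *spt16-1*, 12716 in *ssrp1-2* and 19313 in wild type, and those of root to 4129, 3916 and 4690. All 4 flower markers and all 5 seed markers were at 0 in the 3 lists. Of 5 shoot markers 0 differed by 2-fold. Of 9 root markers only 5 had at least 30 read pairs over both mutants, and 1 of these 5 differed, beside 14.7% of all genes so covered. It was *TIP4;1*, a tonoplast water channel, with 53 read pairs in *spt16-1* and 14 in *ssrp1-2*. The part of tissue composition in the results below was not tested, and in whole seedlings fewer cells of a type and less RNA per cell cannot be told apart.

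The mutated genes themselves were thinly covered. *SPT16* (AT4G10710, chr4:6601903-6606357, minus strand, TAIR10.1 gene coordinates) had 31 read pairs in *spt16-1*, 7 in *ssrp1-2*, 30 in wild type and 7 in *hen2-2*. Its level in *spt16-1* was therefore close to that of wild type, and these read pairs do not check the *spt16-1* label. *SSRP1* (AT3G28730, chr3:10784888-10788729, plus strand, overlapping another gene) had 27 read pairs in *spt16-1*, 0 in *ssrp1-2*, 5 in wild type and 3 in *hen2-2*. *SSRP1* was absent from the list of its own mutant, but wild type had only 2 read pairs more than the smallest TIF-cluster a list can hold. The *spt16-1* over *ssrp1-2* log2 ratio of *SPT16* was 1.76 (0.54 to 3.18), which is the only one of the FACT genes to reach the 30 read pairs required below.

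Intragenic 5′ ends were counted on the 20613 coding genes that overlap no other coding gene, from the start of the coding sequence to the annotated gene end. At full depth, *spt16-1* had 5293 such ends on 1234 genes and *ssrp1-2* had 4207 on 1093 genes. In read pairs, intragenic starts made up 70191 RPM in *spt16-1* and 63663 RPM in *ssrp1-2*, against 86816 RPM in wild type and 70643 RPM in *hen2-2*. On this total, neither mutant list had more intragenic RPM than the wild-type list. The paper describes an artefactual bias of TIF-seq starts toward gene 3′ ends, for which it filtered them by TSS-seq. After *spt16-1* was thinned to the depth of *ssrp1-2* (704561 and 705245 read pairs), it had 4425 ends on 1077 genes and 69181 RPM, still above *ssrp1-2*. A small group of genes carries much of this level: 68 genes began at least 90% of their read pairs downstream of the annotated coding start in both mutants, and without them the level was 49692 RPM in *spt16-1* and 41875 in *ssrp1-2*. The wild-type level without them was not computed, so the order against wild type rests on the total.

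At equal depth, most intragenic 5′ ends of each mutant were found in the other. Of 4425 *spt16-1* ends, 3595 (81.2%, Wilson interval 80.1% to 82.4%) had an *ssrp1-2* end within 50 nt, and of 4207 *ssrp1-2* ends, 3363 (79.9%, 78.7% to 81.1%) had an *spt16-1* end. The shared ends held 92.2% of the intragenic read pairs of *spt16-1* and 91.8% of those of *ssrp1-2*. Their median distance to the nearest end of the other list was 4 nt for *spt16-1* and 3 nt for *ssrp1-2*, and 59.1% and 61.1% were within 5 nt. Ends lie densely in some genes (*LHCA1* had 68 shared *spt16-1* ends between 31 and 1262 nt), which shortens such distances and makes a match easier. The part of this density was not tested. With ends of a list within 20 nt merged, 71.5% and 72.0% were shared. The ends found in 1 mutant numbered 830 in *spt16-1* and 844 in *ssrp1-2*. At the level of genes, 759 had intragenic ends in both mutants, 318 in *spt16-1* only and 334 in *ssrp1-2* only.

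The sequences around the most-used end of a few genes show the 3 classes. Each is 30 nt of the gene's strand, 5′ to 3′, from the RefSeq TAIR10.1 genome, and the capitals mark the base just before the 5′ end and the base at it. Since an end is the outer limit of a TIF-cluster, the exact base is approximate. Each is the most-used end of a gene that leads its class by read pairs, and the end of *GAPC2*, in a 3′-UTR, is not printed.
*PSBTN*, shared, 1557 read pairs in thinned *spt16-1*, 54 nt into the coding span, chr3:7377124-7377153, minus strand: cccaacttcttaaaCAcattcccatcacct
*PSAL*, shared, 539 read pairs, 144 nt in, chr4:7521412-7521441, plus strand: cttcaaactcgattTTattttaattttcat
*LHCA1*, shared, 196 read pairs, 925 nt in, chr3:20339983-20340012, minus strand: gcatttgaccctctTGgatactcgaaggac
*AT3G60750*, *spt16-1* only, 9 read pairs, 1725 nt in, chr3:22455714-22455743, plus strand: aagcttctgagttgAAatctattatcactg
*AT1G02360*, *spt16-1* only, 42 read pairs, 134 nt in, chr1:473124-473153, minus strand: ttacaccaaaaccaTCaagatcgatccctc
*XTH17*, *ssrp1-2* only, 46 read pairs, 23 nt in, chr1:24257204-24257233, plus strand: tacctcgattgtccATcaaacaatacattt
*MLP28*, *ssrp1-2* only, 11 read pairs, 400 nt in, chr1:26710981-26711010, minus strand: gccagataagaactTGatcacgtttagggt
*AT5G20290*, *ssrp1-2* only, 13 read pairs, 1244 nt in, chr5:6851754-6851783, minus strand: aaatgatgtgcagaTAcatcttggaaggta
The 3 shared ends lay 1, 1 and 2 nt from the nearest *ssrp1-2* end. All 8 are in coding exons, unlike that of *GAPC2*. A pyrimidine before a purine at the start, the usual initiator of RNA polymerase II, is present at *PSBTN*, *LHCA1*, *MLP28*, *AT5G20290* and *GAPC2*, and absent at the other 4. Over all ends, this initiator was found at 22.6% of shared and 20.7% of single *spt16-1* ends, and at 22.7% and 20.7% of those of *ssrp1-2*. Its share at random positions was not computed, so no enrichment can be read from these values.

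Shared intragenic ends were led by photosynthesis genes. *PSBTN* encodes a small subunit of photosystem II, and all of its 4580 read pairs in *spt16-1* and 2589 in *ssrp1-2* began inside the annotated coding span, as did all 5216 in wild type. *PSAL* encodes subunit L of photosystem I, and all 2677 and 3583 read pairs did so, with 2898 in wild type. *LHCA1*, an antenna protein of photosystem I, had both kinds of start. Of its 8924 read pairs in *spt16-1* 2003 were intragenic (22.4%), and of 6509 in *ssrp1-2* 959 were (14.7%), over 68 and 57 shared ends. *CLPC1*, a chaperone of the chloroplast stroma, had its shared ends spread from 99 to 4004 nt of the coding span in *spt16-1* and from 97 to 4021 nt in *ssrp1-2*, with 1332 of 2078 and 599 of 981 read pairs intragenic. For all 4 of these genes the ends were also present in wild type, at 1 *CLPC1* end of *ssrp1-2* excepted. The other 4 leading genes were *GRP3S* (a glycine-rich protein), *AT4G23670* (a polyketide cyclase-like protein), *AT1G54410* (a dehydrin) and *RBCS1A* (a small subunit of Rubisco).

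The leading genes with ends in *spt16-1* only mostly had other intragenic ends that *ssrp1-2* shared. *AT3G60750* (transketolase, an enzyme of the Calvin cycle) had 10 such ends with 54 read pairs, of 1876 read pairs of the gene in *spt16-1* and 1003 in *ssrp1-2*, and 7 of the 10 had a wild-type end. *AGT* and *GGT1*, aminotransferases of photorespiration, had 7 ends with 38 read pairs and 5 with 34, and *FBA1*, a chloroplast aldolase, had 5 with 37. *GAPC2*, the cytosolic glyceraldehyde-3-phosphate dehydrogenase, had 5 ends with 45 read pairs between 2022 and 2084 nt, around the end of its coding span, and all 5 had a wild-type end. At *CHUP1*, needed for chloroplast movement, 1 end with 38 read pairs lay 62 nt from the nearest *ssrp1-2* end, just outside the window. *AT1G02360*, of the chitinase family, had a single end with 42 read pairs, and all 50 read pairs of the gene at full depth began inside its coding span, against 0 in *ssrp1-2* and 3 in wild type. *PATL2*, a patellin of membrane trafficking, was different from these. All 8 of its *spt16-1* ends, with 33 read pairs, lacked a wild-type end, and its intragenic read pairs were 49 of 386 in *spt16-1*, 0 of 175 in *ssrp1-2*, 0 of 69 in wild type and 10 of 186 in *hen2-2*.

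Of the ends in *ssrp1-2* only, 57.8% lay in genes with another intragenic end in *spt16-1*. *MLP28* (a major latex protein-like gene) and *AT5G20290* (ribosomal protein S8e) each had 7 such ends with 38 read pairs, of which 3 and 0 had a wild-type end, and *LOS2* (enolase) and *HOG1* (S-adenosylhomocysteine hydrolase) each had 7, with 33 and 30. *AT4G26630*, a DEK-domain chromatin protein, had 4 with 35 read pairs, although its intragenic share was nearly equal in the mutants (79 of 99 in *spt16-1*, 98 of 127 in *ssrp1-2*). *VSP2*, a vegetative storage protein induced by jasmonate, had 8 ends with 35 read pairs among 2041 of the gene. *KIN2*, a small cold-induced protein, had 6 ends with 34 read pairs and none of them had a wild-type end at 22 °C. Its intragenic read pairs were 0 of 72 in *spt16-1*, 43 of 122 in *ssrp1-2*, 0 of 47 in wild type, 12 of 43 in *hen2-2* and 18 of 53 in wild type at 4 °C. *KIN2* has a near-identical neighbour, *KIN1*. Only uniquely aligned reads were kept by the authors, so read pairs that match both copies would be missing. At *XTH17*, a cell wall xyloglucan enzyme, the single end with 46 read pairs is the whole gene in *ssrp1-2*, and the gene was at 0 in *spt16-1*.

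How often an end was shared depended on its read pairs. Of ends with 3 read pairs, 68.0% of *spt16-1* and 66.1% of *ssrp1-2* were shared, and of those with 4 to 5 read pairs 75.4% and 76.3%. The share was 95.7% and 97.4% at 11 to 20 read pairs and 98.6% and 99.6% at 21 to 50. Above 50 read pairs all 101 *spt16-1* and all 81 *ssrp1-2* ends were shared. Only 4 *spt16-1* ends and 1 *ssrp1-2* end with 21 or more read pairs were therefore found in 1 mutant. Ends looked for in wild type gave 67.3% for *spt16-1* and 66.3% for *ssrp1-2* at 3 read pairs. At 11 to 20 read pairs they gave 94.5% and 93.3%. For *ssrp1-2* ends the interval there was 90.8% to 95.2% in wild type and 95.6% to 98.5% in *spt16-1*. Both are shares of the same 494 ends, so that setting the intervals side by side is no test of the difference. At 21 to 50 read pairs the *ssrp1-2* shares were 98.7% in wild type and 99.6% in *spt16-1*.

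**Figure D1:**
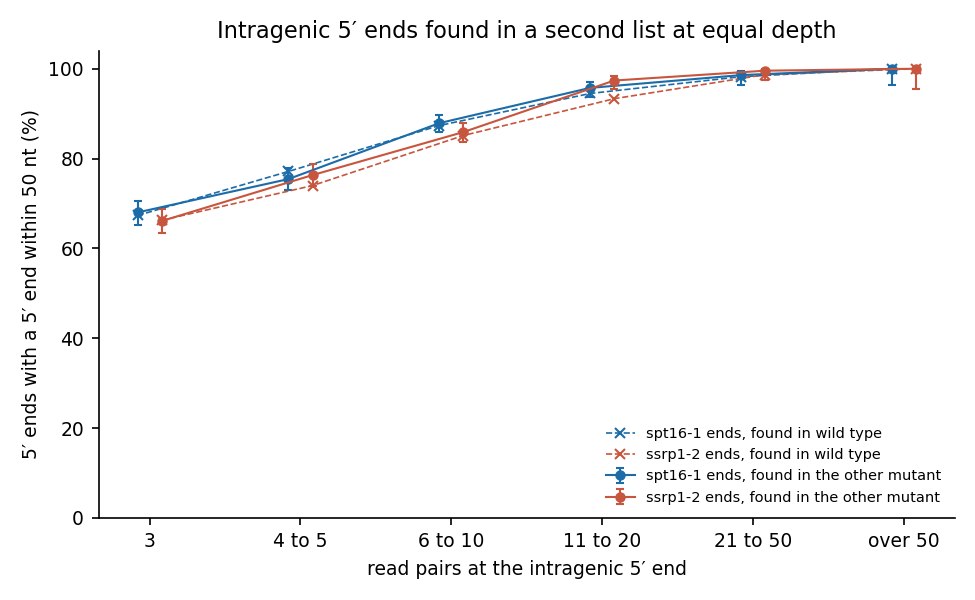
Share of intragenic 5′ ends (y axis, %) with a 5′ end of a second list within 50 nt, by read pairs at the end (x axis), at equal depth. Filled points and solid lines give ends of *spt16-1* (blue) and *ssrp1-2* (red) looked for in the other mutant with 95% Wilson intervals, and crosses with dashed lines the same ends looked for in wild type. The share climbs from 68.0% and 66.1% at 3 read pairs to 100% above 50, and the wild-type curve of *ssrp1-2* lies lower at 11 to 20 read pairs (93.3% against 97.4%).

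At equal depth, an intragenic end of one mutant was met in wild type about as often as in the other mutant. Of *spt16-1* ends 81.2% were met in *ssrp1-2*, 81.2% in wild type and 83.5% in *hen2-2*, and of *ssrp1-2* ends 79.9% were met in *spt16-1*, 78.6% in wild type and 82.7% in *hen2-2*. Wild-type ends were met in *spt16-1* at 81.7% and in *ssrp1-2* at 80.1%. Taking the 3 lists together, 74.0% of *spt16-1* ends were in all 3, 322 (7.28%) were shared with *ssrp1-2* but not wild type, 320 (7.23%) with wild type but not *ssrp1-2*, and 510 (11.5%) were in *spt16-1* alone. Of *ssrp1-2* ends 72.1% were in all 3, 329 (7.82%) were shared with *spt16-1* only, 274 (6.51%) with wild type only, and 570 (13.5%) were in *ssrp1-2* alone. In these counts the lists are shared between the comparisons, so that the shares are given side by side without a test.

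Ends found in both FACT mutants and in none of the other 4 lists were few and weak. There were 38 in *spt16-1* (1.06% of its shared ends, 33 genes, at most 12 read pairs) and 46 in *ssrp1-2* (1.37%, 38 genes, at most 9). Among them, *mtLPD1*, a subunit of mitochondrial 2-oxoacid dehydrogenases, had 1 *spt16-1* end with 6 read pairs 1000 nt into the coding span and 2 *ssrp1-2* ends with 13 at 1001 and 1005 nt. *PME3*, a pectin methylesterase, had 3 ends with 10 read pairs between 987 and 1050 nt in *spt16-1* and 3 with 9 between 981 and 1051 nt in *ssrp1-2*. *AT5G57655*, a xylose isomerase, had ends in an intron at 2499 and 2500 nt in *spt16-1* (10 read pairs) and at 2496 nt in *ssrp1-2* (6). *TGG1*, a myrosinase of glucosinolate breakdown, had 2 ends in each, with 8 and 13 read pairs. These genes were picked after their values were seen. The nuclear pore gene *AT5G51200* and the glycosyltransferase gene *AT4G15260* are those the study displays for FACT. *AT5G51200* had 4 intragenic read pairs in *spt16-1*, 7 in *ssrp1-2* and 0 in wild type, and *AT4G15260* was at 0 in all 3 lists. These counts take only listed TIF-clusters on the strand of the gene. The study's views show TIF-seq reads before clustering, beside TSS-seq, and its legend describes antisense isoforms of *spt16-1* at *AT4G15260*, so the 2 are not like for like.

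Shared and single-mutant ends fell in exons, introns and UTRs at like shares, and differed in level and in wild-type presence. Coding exons held 88.1% of shared and 90.6% of single *spt16-1* ends, and 88.7% and 89.1% of those of *ssrp1-2*. The 3′-UTR held 7.07% and 6.51% in *spt16-1* and 6.27% and 7.46% in *ssrp1-2*, and introns held from 1.45% to 2.36% in the 4 classes. The median end had 6 read pairs when shared and 4 when single, in both mutants. In the wild-type list thinned to equal depth, an end lay within 50 nt of 91.0% of shared and 38.6% of single *spt16-1* ends (35.3% to 41.9% for the latter), and of 90.2% and 32.5% of those of *ssrp1-2* (29.4% to 35.7%). In the full wild-type list the shares were 92.3% and 42.4%, and 91.6% and 34.6%. Any of the 4 other lists, at full depth, had an end near 72.9% of the single *spt16-1* ends and 68.6% of the single *ssrp1-2* ends, so that most ends found in 1 mutant were still met elsewhere in the series.

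Position along the gene differed between the classes. Of shared ends, 25.1% in *spt16-1* and 25.7% in *ssrp1-2* lay within 100 nt of the coding start, against 15.4% and 13.2% of single ends. The median shared end lay at 49.8% and 47.3% of the coding span, and the median single end at 61.2% and 53.3%. Taken per end, single ends also lay in less covered genes. The median was 199 and 177 RPM in full-length TIF-clusters against 454 and 457 for shared ends. A gene with many ends weighs more in these medians, and a gene can be in both classes. Most read pairs ended near the annotated gene end (no more than 150 nt short of it) at 52.1% of shared and 58.2% of single *spt16-1* ends, and at 51.9% and 59.7% in *ssrp1-2*. Among ends of 3 to 5 read pairs alone, an end of the full wild-type list was present for 89.2% and 38.6% in *spt16-1* and 87.7% and 33.5% in *ssrp1-2*, and the median position was 48.0% and 57.7%, and 47.0% and 53.1%.

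**Figure D2:**
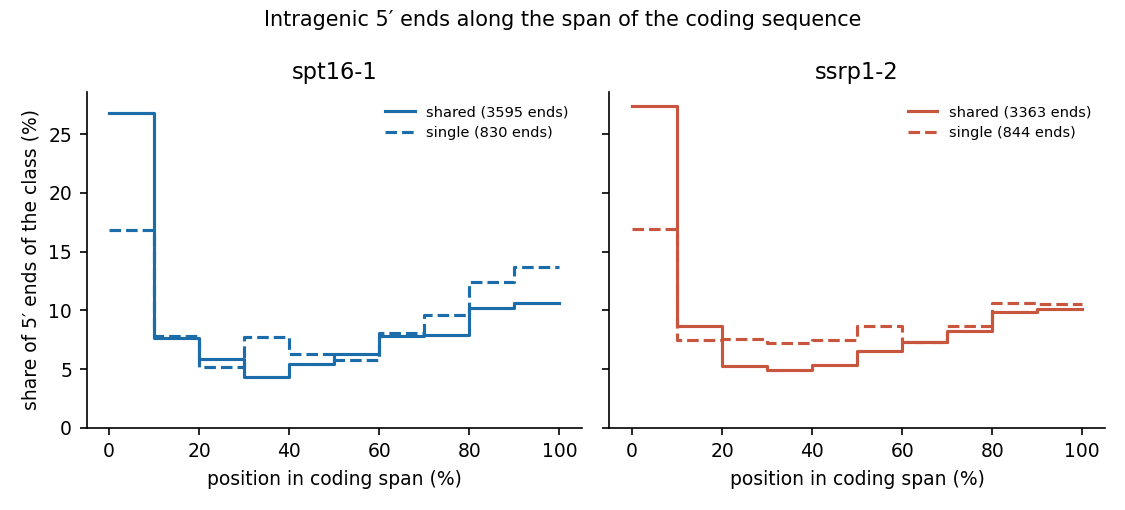
Share of intragenic 5′ ends (y axis, %) in 10 equal bins of the span from the start to the end of the coding sequence (x axis, %), for *spt16-1* (left) and *ssrp1-2* (right) at equal depth, with shared ends as solid and single-mutant ends as dashed lines. The first bin holds 26.9% of shared and 16.9% of single ends in *spt16-1*, and 27.5% and 16.9% in *ssrp1-2*.

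The single-mutant ends were looked up in the other list. Of the 830 in *spt16-1*, 93 (11.2%) lay in a gene at 0 in *ssrp1-2*, 238 (28.7%) in a gene that *ssrp1-2* lists without an intragenic end, and 499 (60.1%) in a gene with another intragenic *ssrp1-2* end. Of the 844 in *ssrp1-2*, the counts were 69 (8.18%), 287 (34.0%) and 488 (57.8%). An end of the other mutant lay 51 to 100 nt away for 164 (19.8%) of the *spt16-1* ends and 177 of the *ssrp1-2* ends. When the full *spt16-1* list was searched, 126 of the 844 *ssrp1-2* ends had a match there.

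The balance between intragenic and other starts of a gene was compared where a gene had at least 30 read pairs in each mutant and an intragenic start in at least 1 of them (934 genes). The intragenic share was higher in *spt16-1* by at least 20 percentage points at 23 genes (2.46% of those compared) and higher in *ssrp1-2* at 19 (2.03%). At 35 of these 42 genes the Wilson intervals of the shares did not overlap. The intervals use the same read pairs as the cut, so they are no separate support. The median difference was 0.88 points. Genes named here were chosen after their values were seen.

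Among genes with a higher intragenic share in *spt16-1*, *AT3G27570* (a sucrase/ferredoxin-like protein) had 70 of 84 read pairs intragenic in *spt16-1*, 15 of 70 in *ssrp1-2* and 53 of 89 in wild type. *CAO*, annotated as a component of the chloroplast signal recognition particle, had 1073 of 1514 (70.9%), 416 of 843 (49.3%) and 684 of 1306 (52.4%). At *CAO* the wild-type share was near that of *ssrp1-2*. *PREP1*, a protease that clears targeting peptides in mitochondria and chloroplasts, had 62 of 89, 7 of 36 and 52 of 106, and with 25 of 100 the *hen2-2* list was low there as *ssrp1-2* was.

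In the other direction, *PTAC5*, a protein of the plastid transcription complex, had 0 of 95 read pairs intragenic in *spt16-1*, 38 of 66 in *ssrp1-2*, 6 of 52 in wild type, 30 of 80 in *hen2-2* and 29 of 73 in wild type at 4 °C. *HTB2*, an H2B histone, had 3 of 118, 25 of 56, 12 of 157, 20 of 170 and 27 of 153. *PTAC5* thus had a raised share in 3 of these lists, and *HTB2* had its highest in *ssrp1-2*. *ATL5*, ribosomal protein L5, had 54 of 402 (13.4%), 275 of 659 (41.7%) and 604 of 964 (62.7%). *RBCS1A* had 833 of 2163 (38.5%), 827 of 1102 and 2111 of 4256 (49.6%). *RBCS1A* belongs to a family of near-identical copies. Only uniquely aligned reads were kept by the authors, so read pairs that match more than 1 copy would be missing.

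Read pairs per gene, the second measure, were compared at 5882 coding genes with at least 30 read pairs over both mutants. Of these, 517 (8.79%) were at least 2-fold higher in *spt16-1* and 348 (5.92%) at least 2-fold higher in *ssrp1-2*, 865 in all (14.7%). With *spt16-1* thinned to equal depth the counts were 399 and 339, so that the surplus toward *spt16-1* was smaller at matched depth. The interval of the ratio left out 1 at 835 of the 865. It uses the same read pairs that made the call, so it is no separate support. Most genes were close: 66.2% were within 1.5-fold, and the median log2 ratio was 0.03 with an SD over genes of 0.79. Against wild type, 1200 of 6078 genes (19.7%) were past 2-fold in *spt16-1* and 1202 of 5553 (21.6%) in *ssrp1-2*, with SDs of 0.91 and 0.97 and 58.2% and 57.3% within 1.5-fold. These comparisons share lists, and no test sets them against each other. The share past 2-fold depended on read pairs, from 26.9% of 1586 genes with 30 to 49 read pairs to 4.11% of 511 genes with 500 or more. By gene length, the median log2 ratio of the mutants ran from -0.02 to 0.11 over 5 groups of equal size.

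**Figure D3:**
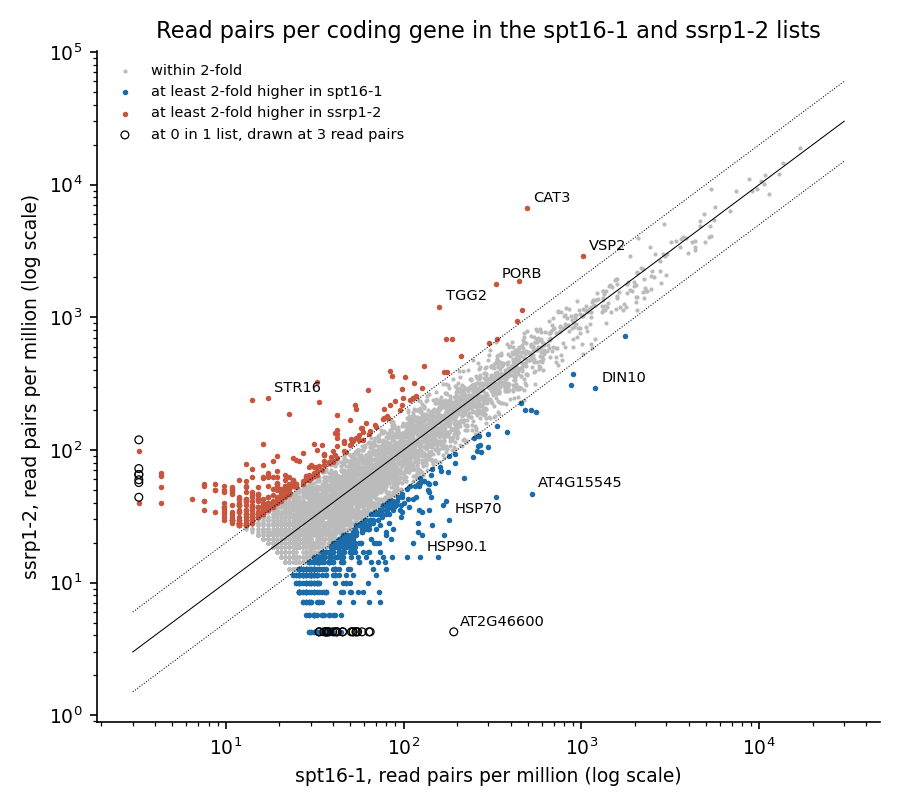
RPM for 5882 coding genes in the *spt16-1* (x axis) and *ssrp1-2* (y axis) lists, both on log scales, each list a pool of 2 libraries. Blue and red points are the genes at least 2-fold higher in *spt16-1* or in *ssrp1-2*, open circles the 32 genes at 0 in 1 list, drawn at 3 read pairs, the solid line is equality and the dotted lines 2-fold. *CAT3* and *TGG2* stand out above the line, and *DIN10* and *AT4G15545* below it.

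Genes at 0 in 1 mutant led both directions. There were 32, of which 25 were at 0 in *ssrp1-2* and 7 in *spt16-1*. Since TIF-clusters without a TSS called by TSS-seq were removed by the authors, a 0 says that the gene is not in the list, and its part in these zeros was not tested. Folds of such genes are bounds against 3 read pairs. These and their counting limits hold only where removal took few read pairs of the gene. TIF-clusters were removed for lack of a TSS, at genomic A runs or for having fewer than 3 read pairs, and a gene can have several. Among the 517 genes higher in *spt16-1*, 475 had their main 5′ end in both lists and 17 (3.29%) were listed in *ssrp1-2* without it. Among the 348 higher in *ssrp1-2*, 338 had it in both and 3 (0.862%) lacked it in *spt16-1*. Most of the differences were therefore at a start that both mutants used. Of 5017 genes within 2-fold, 14 (0.279%) lacked it.

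The gene with the largest bound in *spt16-1* was *AT2G46600*, an EF-hand calcium-binding protein, with 177 read pairs in *spt16-1*, 0 in *ssrp1-2*, 16 in wild type and 100 in *hen2-2*, so that, set against 3 read pairs, it was at least 45.0-fold higher in *spt16-1*, with a lower counting limit of 5.18 on the log2 scale. Its annotation overlaps another gene, and the assignment of its read pairs is uncertain. Among the leading genes below, *NUDT3*, *AT2G36090*, *AT4G15545* and *DIN10* also overlap another gene. On the side of *ssrp1-2*, so do *NdhL*, *IMD1*, *LAC11*, *STR16*, *MEE59* and *PORB*. *MDHAR*, a monodehydroascorbate reductase of the ascorbate cycle, had 60, 0, 0 and 34, at least 15.2-fold higher. The DNAJ-type co-chaperone *AT2G20560* had 59, 0, 42 and 33, at least 15-fold higher. *AT5G48570*, an FKBP-type peptidyl-prolyl isomerase, had 50, 0, 0 and 19, and *AT1G07400*, an HSP20-like small heat shock protein, had 39, 0, 22 and 27. *BEH1*, of the BES1/BZR1 family of brassinosteroid transcription factors, had 42, 0, 0 and 12. Some of these were also at 0 in wild type (*MDHAR*, *AT5G48570*, *BEH1* and the subtilisin-like protease gene *ATSBT5.2*, 48 in *spt16-1*), and others were not. The remaining genes of the 15 whose counting interval lay farthest toward *spt16-1* were all at 0 in *ssrp1-2*: the nudix hydrolase *NUDT3* had 54 read pairs in *spt16-1*, the mannose-binding lectin *AT1G52000* 51, the homeodomain-like gene *AT1G72740* 48, the F-box gene *AT2G36090* 42, *XTH30* of the cell wall 39 and the uncharacterized *AT1G13650* 47, and all 6 were listed in wild type, as was *AT1G02360* above, at 3.

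Of the 15 genes whose counting interval lay farthest toward *spt16-1*, only *AT4G15545* was listed in both mutants. It had 487 read pairs in *spt16-1*, 33 in *ssrp1-2*, 494 in wild type and 415 in *hen2-2*, a log2 ratio of 3.49 (2.98 to 4.05), so that at 22 °C *ssrp1-2* was the low list. The same held for *BZIP53*, a bZIP transcription factor of seed maturation and starvation responses, with 155, 16, 196 and 128 (2.88, 2.14 to 3.73), and for *NEET*, an iron-sulphur protein, with 118, 16, 194 and 70 (2.49). *DIN10*, a raffinose synthase family gene induced in the dark and by sugar depletion, had 1103, 207, 325 and 1655 (2.02, 1.81 to 2.24). *AT5G22920*, a zinc finger protein, had 306, 31, 76 and 179 (2.91). At *DIN10* and *AT5G22920* the *spt16-1* and *hen2-2* lists were high together. All of these but *AT4G15545* were picked after their values were seen, by the same interval rule among genes listed in both mutants.

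On the side of *ssrp1-2*, *CAT3* (AT1G20620, chr1:7142972-7146540, plus strand), a peroxisomal catalase that breaks down hydrogen peroxide, had the most read pairs of the leading genes. It had 459 in *spt16-1*, 4657 in *ssrp1-2*, 403 in wild type and 2797 in *hen2-2*, which is 496, 6603, 478 and 3521 RPM. The log2 ratio was -3.73 (-3.88 to -3.60), a 13.3-fold difference, and *ssrp1-2* and *hen2-2* were high where *spt16-1* and wild type were low. At the main 5′ end of *CAT3* the read pairs were 275, 4522, 318 and 2719, while the intragenic ones were 184, 135, 85 and 78, so that the difference lay at the main start. *GSTU20*, a glutathione S-transferase, had 13, 169, 14 and 9 (-4.09, -5.03 to -3.28). *STR16*, a sulfurtransferase, had 16, 173, 38 and 12 (-3.83, -4.66 to -3.09). At 22 °C both were highest in *ssrp1-2*, but wild type at 4 °C had 167 read pairs of *STR16*, which is 242 RPM against 245 in *ssrp1-2*, and *hen2-2* at 4 °C had 67 of *GSTU20*, which is 163 RPM against 240.

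The other leading genes on this side were of several kinds. *TGG2*, the second myrosinase, had 147 read pairs in *spt16-1*, 847 in *ssrp1-2*, 359 in wild type and 36 in *hen2-2* (-2.92, -3.18 to -2.66). All read pairs of *TGG2* in *ssrp1-2* and wild type began inside the annotated coding span, against 80 of 147 in *spt16-1*. Its main 5′ end, however, lay only 6 nt into that span. Within 50 nt of it began 134 of 147 read pairs in *spt16-1* and 776 of 847 in *ssrp1-2*, so both mostly used the same start region. With TIF-clusters that span the coding sequence alone the log2 ratio turned to 4.09, which rests on the side of the coding start where a read pair began. *IMD1*, an isopropylmalate dehydrogenase of leucine and glucosinolate synthesis, had 0, 42, 4 and 13, and *JAL23*, a jacalin-related lectin, 0, 51, 16 and 3. *XTH17* had 0, 46, 65 and 0, and *LAC11*, a laccase of lignin formation, 0, 40, 54 and 4, at least 20.1-fold and 17.5-fold higher in *ssrp1-2*. The pectin lyase-like gene *AT4G24780* had 3, 69, 101 and 97 (-4.91, -7.23 to -3.31). *PORB*, a light-dependent protochlorophyllide oxidoreductase of chlorophyll synthesis, had 305, 1246, 843 and 859 (-2.42, -2.61 to -2.24) and was picked after its values were seen. At *XTH17*, *LAC11*, *AT4G24780* and *PORB*, *spt16-1* was below wild type.

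The largest bound toward *ssrp1-2* was that of *AT4G28030*, an acyl-CoA N-acyltransferase family gene, with 0 read pairs in *spt16-1*, 84 in *ssrp1-2*, 69 in wild type and 5 in *hen2-2*, at least 36.7-fold higher in *ssrp1-2*. *NdhL*, of the chloroplast NDH complex of cyclic electron flow, had 0, 46, 18 and 3, and *HSK*, the homoserine kinase of threonine synthesis, had 0, 31, 27 and 37. All 3 were thus listed in wild type and missing in *spt16-1*. *MEE59*, named for arrest of the embryo, had 30, 229, 0 and 175 (-3.32, -3.92 to -2.77) and was missing in wild type instead. The adenylate kinase family gene *AT5G50370* had 4, 47, 21 and 25, and the ARM repeat gene *AT5G11550* had 4, 45, 23 and 4.

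Gene lists of chromatin, photosynthesis, hormone, clock and stress genes were then counted. Over 12 such lists 15 of 108 covered members were past 2-fold, 9 toward *spt16-1* and 6 toward *ssrp1-2*, beside 14.7% of all genes. The 2 shares are not matched for read pairs, on which the share past 2-fold depends. Of the 108, 40 are photosystem and antenna genes, mostly with many read pairs, and 1 of these was past 2-fold. List members within 2-fold that are named below were picked after their values were seen. Of 7 histone chaperone genes with at least 30 read pairs, 1 was higher in *spt16-1* (*SPT16* itself) and 0 in *ssrp1-2*, with a median log2 ratio of 0.30. Of 7 elongation factor genes 1 was higher in *spt16-1* and 0 in *ssrp1-2* (median 0.27). That gene was *VIP5*, a subunit of the PAF1 complex that travels with RNA polymerase II, with 64 read pairs in *spt16-1*, 23 in *ssrp1-2*, 32 in wild type and 34 in *hen2-2* (1.09, 0.38 to 1.84). None of 7 histone variant genes was past 2-fold, and their log2 ratios lay between -0.04 and 0.26. *HIS1-3*, a linker histone induced by drought, had 135 read pairs in *spt16-1*, 86 in *ssrp1-2*, 25 in wild type and 24 in *hen2-2* (0.26), so that both mutants were above wild type by a like amount.

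Photosynthesis genes were nearly all within 2-fold and went both ways. Most of the photosystem and antenna genes had 500 or more read pairs over both mutants, and of all genes with that many 4.11% were past 2-fold. All 40 photosystem and antenna genes were covered, 1 was higher in *ssrp1-2* and 0 in *spt16-1*, and the median log2 ratio was 0.00. *PSAE-2*, a stromal subunit of photosystem I, was that gene, with 194 read pairs in *spt16-1*, 360 in *ssrp1-2* and 416 in wild type (-1.28, -1.54 to -1.03). Within 2-fold, the antenna gene *LHCB4.2* had 1054 and 416 (0.95, 0.78 to 1.12) and *PSAL* 2677 and 3583 (-0.81, -0.88 to -0.74), with intervals away from 0. Summed, the 40 genes took 188135 RPM in *spt16-1*, 194928 in *ssrp1-2* and 205239 in wild type. The 5 Rubisco genes had a median of 0.44 and 0 past 2-fold. Of 218 ribosomal protein genes by annotation 6 were higher in *spt16-1* and 11 in *ssrp1-2*, and 63 had a ratio above 1 (median -0.19).

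**Figure D4:**
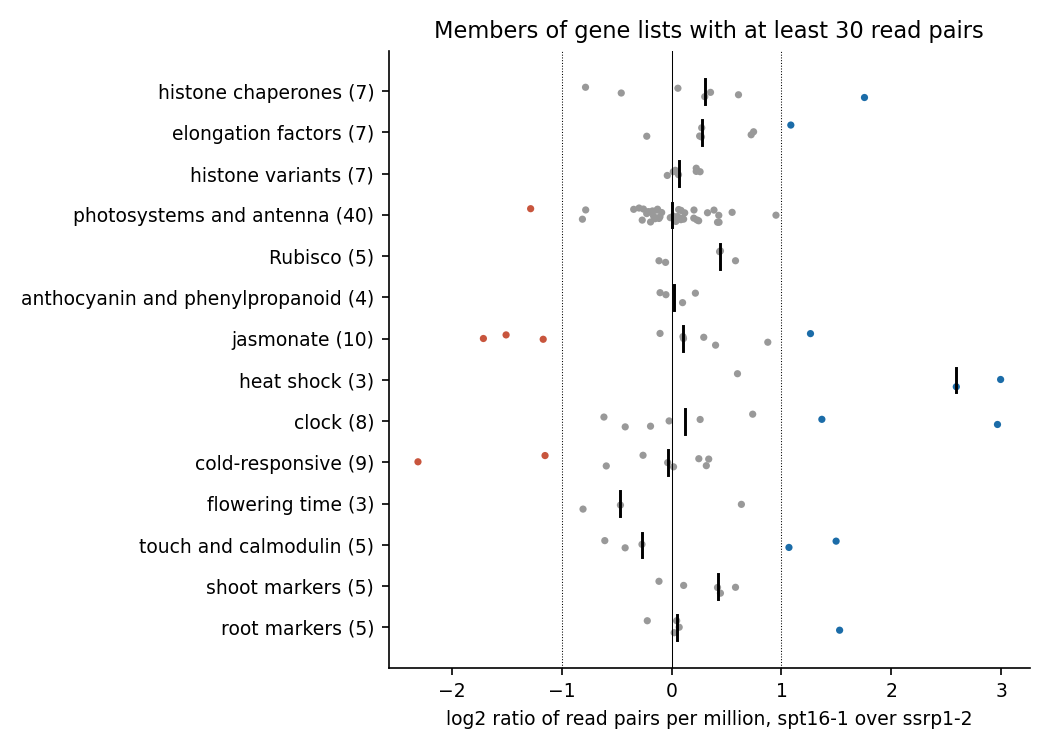
Log2 ratio of RPM, *spt16-1* over *ssrp1-2* (x axis), for each member with at least 30 read pairs over both mutants in 14 gene lists (y axis, number of members in parentheses). Points are genes, blue when at least 2-fold higher in *spt16-1* and red when at least 2-fold higher in *ssrp1-2*, black bars are medians and dotted lines mark 2-fold. The heat shock list has 2 of its 3 covered members on the *spt16-1* side, and the jasmonate list has 1 and 3 members past the lines.

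Heat shock genes were the list with the largest median, 2.59 over 3 members, of which 2 were higher in *spt16-1* and 0 in *ssrp1-2*. *HSP90.1*, the stress-induced cytosolic HSP90, had 115 read pairs in *spt16-1*, 11 in *ssrp1-2*, 13 in wild type and 76 in *hen2-2* (2.99). *HSP70* (AT3G12580), a stress-induced HSP70, had 166, 21, 83 and 128 (2.59, 1.93 to 3.32). *HSC70-1*, its constitutive relative, had 1586, 798, 1693 and 2140 (0.60, 0.48 to 0.72). Several members under 30 read pairs were listed in *spt16-1* and not in *ssrp1-2*: *HSP101*, the disaggregase, had 21 there and 0 in *ssrp1-2*, the small heat shock protein genes *HSP17.6A* and *HSP17.4* had 19 and 17 against 0, and *HSFA2*, a heat shock factor, had 13 against 0. *Hsp70-2* went the other way, with 9 and 13. In all, 11 of 13 members were listed in *spt16-1*, 5 in *ssrp1-2* and 7 in wild type at full depth, where *spt16-1* has more read pairs than *ssrp1-2*. Of all 27444 coding genes, these lists named 11391, 10499 and 10666. The *hen2-2* list, at the same temperature, also had *HSP90.1* and *HSP70* above wild type.

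The clock list had 2 of 8 members higher in *spt16-1* and 0 in *ssrp1-2*, with a median of 0.12. *CCA1*, a morning-phased MYB repressor at the core of the clock, had 41 read pairs in *spt16-1*, 4 in *ssrp1-2*, 40 in wild type and 54 in *hen2-2* (2.97). *AT3G54500*, known as LNK2, a morning co-activator of clock genes, had 44, 13, 32 and 48 (1.37, 0.45 to 2.38). Of the 4 lists at 22 °C, *ssrp1-2* was the low one at both. *PRR5*, of the afternoon, had 102, 79, 67 and 24 (-0.02), and *TOC1*, of the evening, 31, 27, 17 and 19 (-0.19). *GRP7*, an RNA-binding protein with an evening peak, had 1744, 2038, 897 and 1169 (-0.62, -0.71 to -0.52). The time of day of the harvests was not given in the sources used here.

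**Figure D5:**
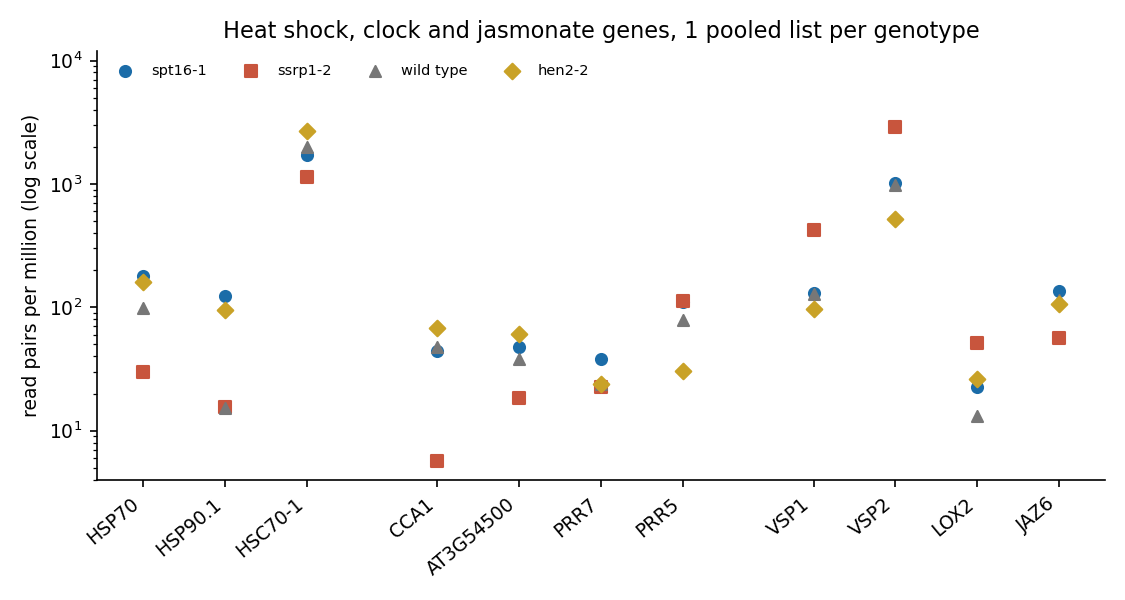
RPM (y axis, log scale) of heat shock, clock and jasmonate genes (x axis) in 4 lists at 22 °C, each a pool of 2 libraries, with *spt16-1* as blue circles, *ssrp1-2* as red squares, wild type as grey triangles and *hen2-2* as yellow diamonds. *HSP70*, *CCA1* and *AT3G54500* are lowest in *ssrp1-2*, *HSP90.1* is low in *ssrp1-2* and wild type, and *VSP1*, *VSP2* and *LOX2* are highest in *ssrp1-2*.

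Jasmonate genes went both ways, with 1 of 10 higher in *spt16-1* and 3 in *ssrp1-2* (median 0.11). *VSP2* had 942 read pairs in *spt16-1*, 2041 in *ssrp1-2*, 821 in wild type and 410 in *hen2-2* (-1.51, -1.62 to -1.39), and *VSP1* had 120, 300, 108 and 77 (-1.71, -2.03 to -1.40). *LOX2*, the lipoxygenase that feeds jasmonate synthesis in leaves, had 21, 36, 11 and 21 (-1.17, -2.02 to -0.35). The storage protein genes and *LOX2* were thus highest in *ssrp1-2* of the 4 lists at 22 °C. *JAZ6*, a repressor of jasmonate signalling, had 126, 40, 96 and 84 (1.26, 0.74 to 1.82), and *JAZ1* had 77, 32, 41 and 26 (0.88). The synthesis genes *AOS* (135 and 78, 0.40), *AOC2* (89 and 73, -0.11) and *OPR3* (151 and 94, 0.29) were within 2-fold.

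Among cold-responsive genes 2 of 9 were higher in *ssrp1-2* and 0 in *spt16-1* (median -0.04). *KIN2* had 72 read pairs in *spt16-1*, 122 in *ssrp1-2*, 47 in wild type and 43 in *hen2-2* (-1.15, -1.59 to -0.72), and *AT4G33980* had 9, 34, 0 and 0 (-2.31, -3.55 to -1.22). *COR47* and *ERD10*, dehydrins, were covered well and differed little (2261 and 1452, 0.25, and 671 and 411, 0.32). The touch and calmodulin list had 2 of 5 higher in *spt16-1* and 0 in *ssrp1-2*, although its median was -0.27. *TCH4*, a touch-induced xyloglucan enzyme, had 274, 74, 348 and 310 (log2 interval 1.12 to 1.89) and *CAM2*, a calmodulin gene that overlaps another gene, had 44, 16, 30 and 31 (1.07, 0.21 to 1.99). At *TCH4* it was *ssrp1-2* that stood below the other 3 lists at 22 °C. Flowering time genes (3 covered) and anthocyanin and phenylpropanoid genes (4 covered) had 0 past 2-fold. *SVP*, a repressor of flowering, had 151 and 159 (-0.47), and *SOC1* (AT2G45660), an activator of it, had 110 and 54 (0.64).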

How the data were processed

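TIF-seq of 14-day-old seedlings at 22 °C was read from the lists of *spt16-1* and *ssrp1-2*. The deposited read-pair counts per TIF-cluster were made by the authors. Reads were trimmed with cutadapt, aligned to TAIR10 with STAR 2.6.1c, kept where uniquely aligned and deduplicated with UMI-tools. The 2 libraries of a genotype were merged and clustered within 20 nt windows. TIF-clusters of fewer than 3 read pairs, at genomic A runs or without a TSS-seq start were removed by them.

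Read pairs were summed per coding gene (27444 in the TAIR10.1 RefSeq annotation) and scaled to RPM (read pairs per 1000000 of the list), in Python 3.11.15 with pandas 2.3.3 and scipy 1.17.1. Genes needed 30 read pairs over both lists and were called at 2-fold, and a 0 was set to 3 read pairs. Intervals are 95% (Clopper-Pearson for ratios, Wilson for shares). For equal depth, the deeper lists were thinned binomially. Named genes were the 15 in each direction whose interval lay farthest from a ratio of 1, by its nearer bound, the 8 with the most intragenic read pairs in each class, up to 4 members past 2-fold per list, *SPT16*, *SSRP1* and the genes shown for FACT, and others are said to be picked later. Members, gene lists and rules were chosen with earlier results of these data known. The steps were tested on simulated data. The 6 TSS-seq samples were not used.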

Additional observations from a re-analysis of the deposited data

How the results depend on the processing

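No paired analysis was possible because each list pools both libraries of its genotype, and for the same reason no library could be left out. The count of genes past 2-fold was 2434 of 9286 when 10 read pairs were required and 169 of 2527 when 100 were, and between 592 and 900 under 6 other settings. Of *spt16-1* and *ssrp1-2* intragenic ends, 71.5% and 69.7% were shared within 20 nt, 84.9% and 84.1% within 100 nt, 78.6% and 82.9% at full depth, 71.5% and 72.0% when ends of a list within 20 nt were merged, and 79.6% and 78.3% without the 68 genes that begin at least 90% of their read pairs downstream. For *ssrp1-2* ends the share was 78.7% when *spt16-1* was thinned before the cluster minimum, and 81.6% for TIF-clusters of at least 5 read pairs. In 19 other draws of the thinning it was 80.8% to 82.2% and 79.2% to 80.0%. The intragenic level was 69181 RPM in thinned *spt16-1*, and in *spt16-1* and *ssrp1-2* it was 65863 and 57946.5 for TIF-clusters of at least 5 read pairs, 65397 and 60094 inside the coding span, and 49692 and 41875 without the 68 genes. It was higher in *spt16-1* in each. At full depth 29.8% of *ssrp1-2* only ends had a wild-type end. The log2 ratio of *TGG2* (AT5G25980) reversed to 4.09 with TIF-clusters that span the coding sequence, since its read pairs in *ssrp1-2* begin inside the annotated span. Most of these begin within 50 nt of a main 5′ end that lies 6 nt into the span and that *spt16-1* shares. Of 1348 values of 179 named genes under these settings, 1314 stayed inside their counting interval. Several settings change only which genes are counted and leave a gene's ratio as it was. These are the 10 and 100 read pair minima, genes without overlap and genes listed in both mutants. Values under them could not move, so the 1314 are no measure of stability. Leaving out the 68 genes, genes at 0 and the full-depth features were chosen as alternatives after seeing the data. Thin coverage limits genes under 50 read pairs and ends of 3 to 5 read pairs most.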
